A study of Homo sapiens with 12 samples.

Results

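The 10 genes described here encode short-lived transcription factors: 7 Krüppel-like factors (KLF2, KLF4, KLF5, KLF6, KLF9, KLF10 and KLF11) and 3 CCAAT/enhancer-binding proteins (CEBPA, CEBPB and CEBPD). They were chosen by how they responded to THZ531 in these same arrays, with CEBPB and KLF2 picked as transcripts that went down while other short-lived transcripts went up, so their differences from DMSO are a description and carry no test. All 10 were among the 16913 genes kept for analysis, and 8 were bright enough to be among the 10148 genes tested. KLF9 and CEBPA were under that minimum, a mean log2 signal of 5.94 over the 12 arrays, and are given as values.

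The cells were A673 and TC32, established lines of Ewing sarcoma, a tumour of bone and soft tissue in which EWSR1 is fused to a gene of the ETS family. Cells of each line received the solvent DMSO, 100 nM THZ531 or 500 nM THZ531, written THZ_5_31_1 in the treatment notes, for 6 hours, which gave 6 groups of 2 arrays. THZ531 binds CDK12 and CDK13 covalently and blocks them; both kinases act on RNA polymerase II while it elongates. No group was genetically altered. The arrays of a group are labelled as biological replicates, with nothing on how separate the cultures were. The p-values measure the spread between such arrays, and as deposited a spread shared by genes of like brightness. ERCC control RNA was added to total RNA of every sample.

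Krüppel-like factors bind GC-rich and CACCC boxes through 3 zinc fingers at their C-terminal end. C/EBP proteins bind DNA as dimers through a basic region and a leucine zipper. Transcripts of both families are typically induced and degraded fast, so their level follows ongoing transcription closely. KLF2 is best known from quiescent endothelium and lymphocytes, KLF4 and KLF5 from epithelial and stem cells, CEBPA from granulocyte, liver and fat cell differentiation, and CEBPB and CEBPD from acute inflammatory responses.

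Values are the deposited log2 signals, in which 1 unit is a factor of 2.00. The array medians ran from 5.68 to 7.32 and, averaged over the 2 arrays of a group, were lowest in both lines at 500 nM. The A673 arrays at 500 nM differed in their medians, 6.60 and 6.13. The first of them lay within the range of the A673 arrays at 100 nM, 6.61 and 6.54. Centring each array on its median therefore moved every 500 nM difference from DMSO by 0.83 in A673 and 0.79 in TC32, every 100 nM difference by 0.62 and 0.21, and every difference between untreated A673 and TC32 by 0.69. Values as deposited and values relative to the array medians are both given, because how the authors scaled the arrays is not given in the sources used here. Both lines carried the markers of Ewing sarcoma: all 7 measured markers of 8 listed reached the minimum in some group, with DMSO means from 7.63 to 13.8. Markers of leukocytes, epithelium and endothelium had group means between 3.63 and 6.76, and 1 of 2, 1 of 4 and 3 of 4 of those measured reached the minimum in some group. The part of other cells in the results was not tested.

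The promoters of 3 members are shown because the results turn on them: CEBPB and KLF2 as the members chosen as lower at 500 nM, and KLF6 as a bright member that lay above DMSO in both lines. The sequences are the 250 bases before the RefSeq start on GRCh38.p14, 5′ to 3′ on the strand of the gene. The KLF2 window lies at chr19:16324576-16324825 on the plus strand, KLF6 at chr10:3785210-3785459 on the minus strand, and the upstream CEBPB start at chr20:50190333-50190582 on the plus strand. The piece named CEBPB, second start is the 30 bases at chr20:50190800-50190829, just before the downstream CEBPB start. Capitals mark 4 elements on either strand, the TATA box with letters TATAAA, the box named after its letters CCAAT, the GC box with letters GGGCGG and the MEF2 element, and a match on the other strand stands as its reverse complement.
KLF2: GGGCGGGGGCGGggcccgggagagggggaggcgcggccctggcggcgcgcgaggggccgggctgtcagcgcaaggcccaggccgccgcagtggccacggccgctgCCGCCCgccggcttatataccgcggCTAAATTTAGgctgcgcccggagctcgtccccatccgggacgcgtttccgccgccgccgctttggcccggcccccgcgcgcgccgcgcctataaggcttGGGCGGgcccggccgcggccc
CEBPB, upstream start: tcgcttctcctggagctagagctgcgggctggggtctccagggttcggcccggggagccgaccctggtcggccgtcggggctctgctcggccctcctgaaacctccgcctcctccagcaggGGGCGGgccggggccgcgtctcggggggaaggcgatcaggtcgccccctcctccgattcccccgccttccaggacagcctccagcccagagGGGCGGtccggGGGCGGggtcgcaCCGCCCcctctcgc
CEBPB, second start: tTATAAAtaaccgggctcaggagaaacttt
KLF6: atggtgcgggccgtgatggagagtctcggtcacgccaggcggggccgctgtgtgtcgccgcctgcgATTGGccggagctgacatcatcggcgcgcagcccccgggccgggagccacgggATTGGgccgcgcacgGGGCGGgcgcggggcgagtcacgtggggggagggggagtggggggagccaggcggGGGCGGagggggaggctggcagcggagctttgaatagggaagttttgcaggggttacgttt

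RefSeq gave such windows for 8 of the 10 members, 11 windows in all. The GC box GGGCGG, the letters that KLF and SP proteins bind, was found in 9 of the 11 windows, from 7 of the 8 members, and in 42.64% of all 35116 promoter windows of the same length. CCAAT was found in 4 of the 11 windows and in 32.01% of all windows, and TATAAA in 3 of the 11 and in 10.72%. The CEBPB match to TATAAA began at position -29 from the downstream start and the CEBPA match at -30, while the KLF5 match began at -194. The MEF2 element, searched by its usual 10-letter consensus, was found in 1 of the 11 windows, that of KLF2, at position -120, and in 1.75% of all windows. The cAMP response element TGACGTCA was found in 1 of the 11, a KLF11 window, and in 1.65% of all windows, and the CArG box, the element bound by SRF, in 0 of the 11 and in 1.16%. The searches covered both strands; matches of different elements did not have to be apart, and a match is only a run of letters.

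CEBPB was the member with the largest loss of signal at 500 nM. It encodes an activator of inflammatory and metabolic genes. In A673 it read 10.68 and 10.49 with DMSO, 10.10 and 10.17 at 100 nM, then 8.91 and 8.69 at 500 nM. In TC32 it read 9.64 and 9.53 with DMSO, 9.78 and 9.56 at 100 nM, then 7.20 and 7.46 at 500 nM. The 500 nM arrays lay below all other arrays of their line, by more than 1 log2 unit. The difference of 500 nM from DMSO was -1.79 ± 0.21 (SE of the fit, n = 2 in each group) in A673, 3.45-fold lower, and -2.25 ± 0.21 in TC32, 4.77-fold lower. The corresponding relative differences were -0.95 ± 0.13 and -1.46 ± 0.13. At 100 nM the difference was -0.45 in A673, where both arrays lay below both DMSO arrays, but 0.17 relative to the medians. In TC32 the 100 nM arrays read 0.09 above DMSO and overlapped the DMSO range. Ordered by level, CEBPB was highest in A673 with DMSO, then A673 at 100 nM, TC32 at 100 nM, TC32 with DMSO, A673 at 500 nM and TC32 at 500 nM. Among these neighbours, only the ranges of the TC32 arrays at 100 nM and with DMSO overlapped.

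CEBPD, which encodes the family member most rapidly raised by cytokines, differed more between the lines than between doses. In A673 it read 6.52 and 6.63 with DMSO, 6.89 and 6.76 at 100 nM, then 6.41 and 6.19 at 500 nM. In TC32 its values were 8.31 and 8.35 with DMSO, 8.93 and 8.82 at 100 nM, then 7.46 and 7.74 at 500 nM. In both lines the 100 nM arrays were the highest and the 500 nM arrays the lowest, with no overlap. The 500 nM difference from DMSO was -0.28 ± 0.21 in A673 and -0.74 ± 0.21 in TC32 as deposited, and 0.56 and 0.06 relative to the medians. CEBPD thus changed sides with the scale in A673, while in TC32 its relative values at 500 nM overlapped those with DMSO. The step from 100 to 500 nM kept its direction, at -0.52 in A673 and -1.27 in TC32 as deposited and -0.31 and -0.69 relative.

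CEBPA, which encodes a factor that drives differentiation and stops division, was dim in every group. Its A673 values were 5.69 and 5.31 with DMSO, 4.91 and 5.28 at 100 nM, then 5.06 and 5.26 at 500 nM. The TC32 values were 5.14 and 5.05 with DMSO, 4.74 and 4.89 at 100 nM, then 4.60 and 4.69 at 500 nM. All CEBPA values lay below the brightness minimum of 5.94, and treated arrays lay below DMSO as deposited by 0.28 to 0.45. In the centred values they were 0.07 below DMSO in TC32 at 100 nM and 0.21 to 0.49 above it otherwise.

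KLF2, which encodes a factor that keeps lymphocytes and endothelial cells quiescent, lay lower at 500 nM as deposited in both lines, and on the relative scale clearly so in TC32. In A673 it read 8.82 and 8.62 with DMSO, 8.66 and 8.65 at 100 nM, then 7.98 and 7.69 at 500 nM. In TC32 it read 10.06 and 9.85 with DMSO, 10.18 and 10.07 at 100 nM, then 8.56 and 8.76 at 500 nM. The 500 nM arrays of each line lay below its other arrays, while the 100 nM arrays of A673 fell within the DMSO range. The 500 nM difference was -0.88 ± 0.21 in A673 and -1.29 ± 0.21 in TC32, 1.85-fold and 2.45-fold lower. On the relative scale it was -0.05 ± 0.12 in A673, where the 500 nM arrays fell on either side of the DMSO arrays, and -0.50 ± 0.12 in TC32. So the A673 difference in KLF2 was about that of the median gene, and the TC32 difference was larger. At 100 nM the relative values lay above DMSO by 0.55 in A673 and 0.37 in TC32. Ordered by level, KLF2 was highest in TC32 at 100 nM, then TC32 with DMSO, then A673 with DMSO, TC32 at 500 nM and A673 at 100 nM, and lowest in A673 at 500 nM. The third to the fifth of these groups overlapped, and the other neighbours did not.

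**Figure D1:**
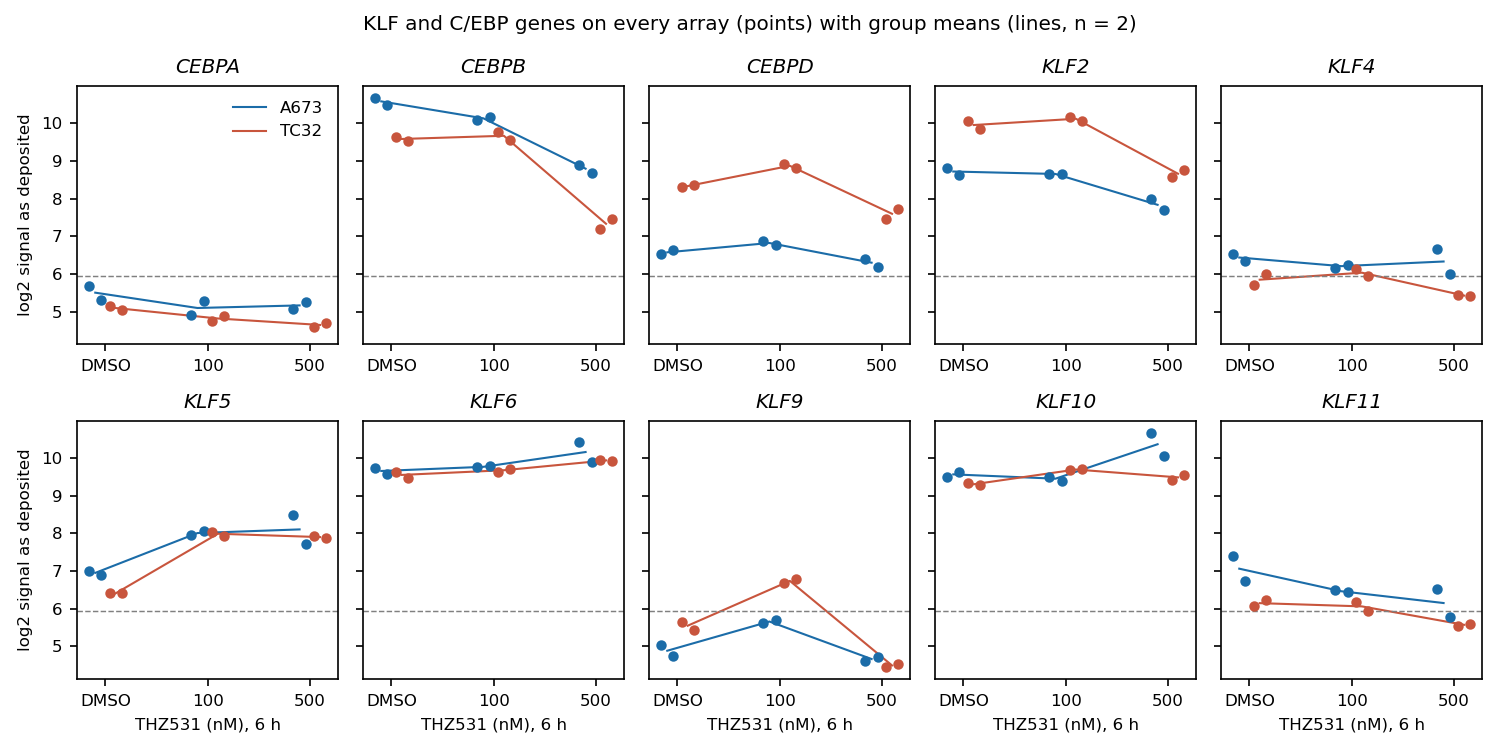
Deposited log2 signal of the 10 genes on each array (points) and the mean of the 2 arrays of a group (lines), for A673 and TC32 with DMSO, 100 nM and 500 nM THZ531. The dashed line is the brightness minimum of 5.94; CEBPB and KLF2 drop between 100 and 500 nM, and KLF5 is higher at both doses.

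KLF5, KLF6 and KLF10 made up the other side. Both treated arrays of KLF5 and KLF6 lay above both DMSO arrays in each line, at each dose and on either scale. KLF5, which encodes a factor that promotes proliferation in epithelial crypts, read 7.01 and 6.89 with DMSO, 7.95 and 8.07 at 100 nM, then 8.50 and 7.72 at 500 nM in A673. The TC32 arrays read 6.41 and 6.42 with DMSO, 8.05 and 7.94 at 100 nM, then 7.94 and 7.87 at 500 nM. KLF5 was already near its highest signal at 100 nM: the differences from DMSO were 1.06 and 1.16 ± 0.21 at 100 and 500 nM in A673, and 1.58 and 1.49 ± 0.21 in TC32. After centring KLF5 stood 1.68 and 1.99 above DMSO in A673 and 1.79 and 2.29 above it in TC32, the latter 4.88-fold. As deposited, the A673 arrays at 500 nM differed from each other by more than the step from 100 to 500 nM in that line. The medians of these arrays also differed, 6.60 and 6.13, which centring takes out.

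KLF6, which encodes a broadly expressed factor that is induced by injury and growth factors, read 9.74 and 9.58 with DMSO, 9.76 and 9.78 at 100 nM, then 10.42 and 9.91 at 500 nM in A673. In TC32 it read 9.63 and 9.48 with DMSO, 9.65 and 9.71 at 100 nM, then 9.96 and 9.92 at 500 nM. The groups were ordered by dose in both lines, with the 100 nM arrays only just above DMSO. The 500 nM difference was 0.50 ± 0.20 in A673 and 0.39 ± 0.20 in TC32 as deposited, and 1.34 ± 0.11 and 1.18 ± 0.11 relative to the medians.

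KLF10, a gene induced early by TGF-beta, had its highest signal at different doses in the 2 lines. In A673 it read 9.51 and 9.63 with DMSO, 9.50 and 9.41 at 100 nM, then 10.67 and 10.07 at 500 nM. In TC32 the signal was 9.33 and 9.28 with DMSO, 9.69 and 9.71 at 100 nM, then 9.42 and 9.56 at 500 nM. KLF10 was highest at 500 nM in A673 and at 100 nM in TC32, and in both lines the other treated group lay closer to DMSO. The 500 nM difference was 0.80 ± 0.20 and 0.18 ± 0.20 as deposited, and 1.63 ± 0.13 and 0.98 ± 0.13 relative to the medians, where the 500 nM arrays were the highest of both lines.

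KLF9, a gene induced by glucocorticoids and thyroid hormone, was highest at 100 nM and lowest at 500 nM as deposited. In A673 it read 5.04 and 4.73 with DMSO, 5.62 and 5.70 at 100 nM, then 4.60 and 4.72 at 500 nM. In TC32 it read 5.65 and 5.45 with DMSO, 6.68 and 6.80 at 100 nM, then 4.44 and 4.55 at 500 nM. Only the TC32 arrays at 100 nM were above the brightness minimum, so the lower ends of these differences are dim signals. The 100 nM difference of KLF9 from DMSO was 0.78 in A673 and 1.19 in TC32, and from 100 to 500 nM KLF9 was lower by a difference of -0.996 and -2.25. On the relative scale those steps were 1.39 and 1.40 up, then -0.78 and -1.66.

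KLF4, one of the factors used to reprogram cells to pluripotency, and KLF11, a repressor related to KLF10, lay mostly near the brightness minimum. The exception was KLF11 in A673 with DMSO, which read higher. KLF4 read 6.53 and 6.34 with DMSO, 6.17 and 6.25 at 100 nM, then 6.66 and 6.00 at 500 nM in A673. In TC32 KLF4 read 5.70 and 6.00 with DMSO, 6.13 and 5.93 at 100 nM, then 5.43 and 5.42 at 500 nM. The KLF4 arrays at 500 nM in A673 spanned the whole DMSO range as deposited, with a mean difference of -0.11, and in TC32 they lay below it by 0.42. Set against the medians, KLF4 stood 0.73 above DMSO at 500 nM in A673 and 0.37 above it in TC32. KLF11 read 7.40 and 6.73 with DMSO, 6.49 and 6.44 at 100 nM, then 6.52 and 5.78 at 500 nM in A673. In TC32 KLF11 read 6.07 and 6.23 with DMSO, 6.17 and 5.95 at 100 nM, then 5.55 and 5.60 at 500 nM. Its 500 nM differences, -0.91 and -0.57 as deposited, became -0.08 ± 0.15 and 0.22 ± 0.15 after centring. The KLF11 differences were thus close to those of the array medians.

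**Figure D2:**
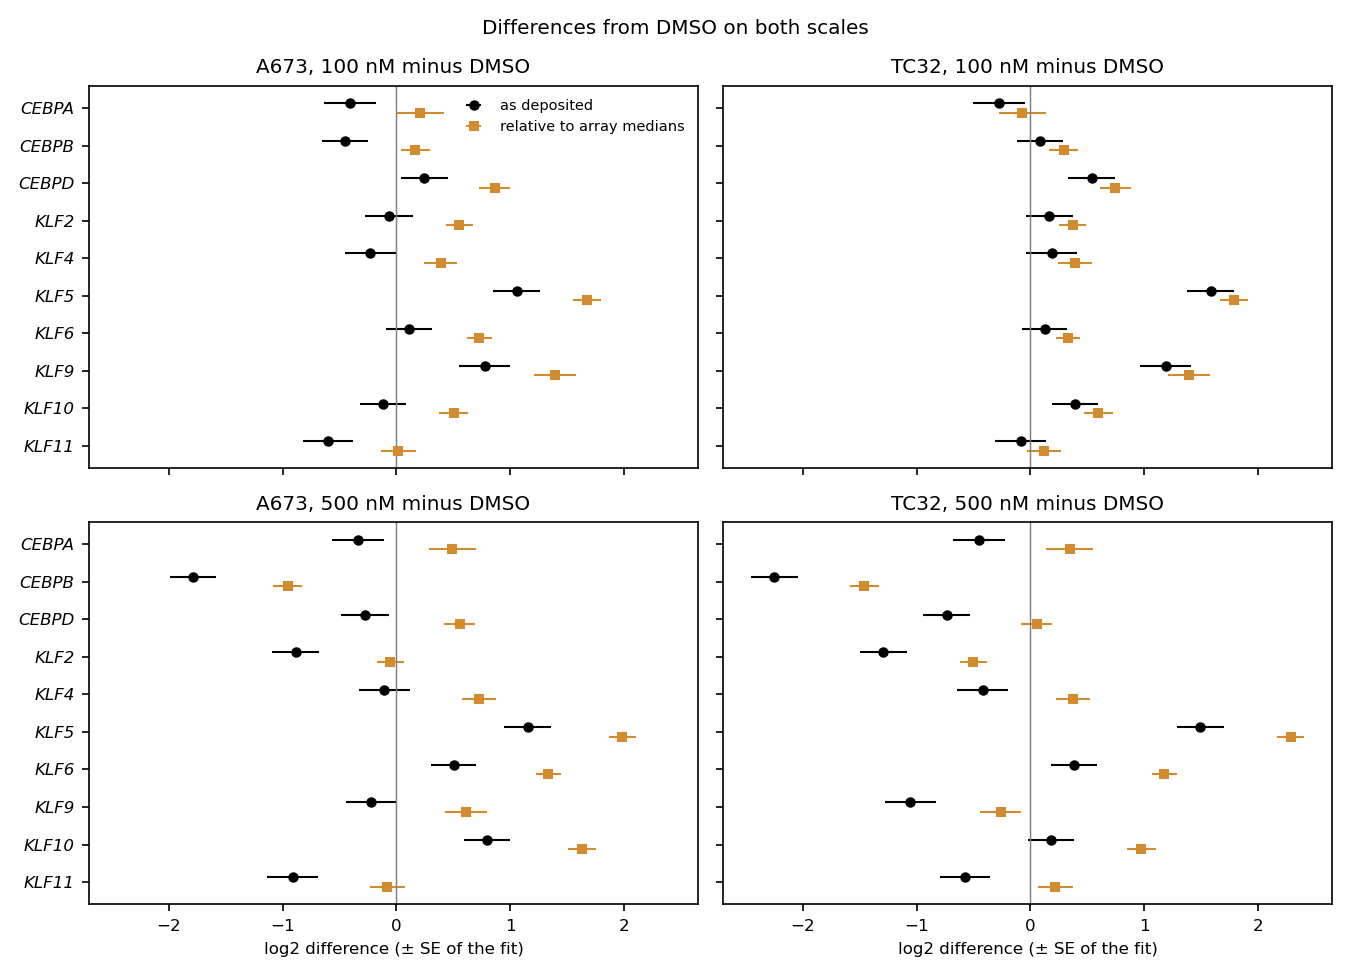
Difference from DMSO of the 10 genes at 100 nM (top) and 500 nM (bottom) in A673 (left) and TC32 (right), in log2 units with the standard error of the fit, as deposited (circles) and relative to the array medians (squares). CEBPB at 500 nM is below 0 on both scales in both lines, KLF5 is above 0 in every panel, and KLF2 at 500 nM in A673 is at -0.88 as deposited and -0.05 relative.

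Counted over the 10 members as deposited, both 500 nM arrays lay above both DMSO arrays for 3 members in each line, and below both for 6 in A673 and 7 in TC32. The same was true, as deposited, of 2.04% and 3.04% of all 16913 genes above DMSO in A673 and TC32, and of 66.8% and 75.1% below it. With arrays centred on their medians, the counts were 7 above and 1 below in A673, the latter CEBPB, and 6 above and 3 below in TC32, the latter CEBPB, KLF2 and KLF9. On that scale 57.7% and 65.6% of all 16913 genes lay above DMSO in A673 and TC32, and 21.9% and 24.4% below it. At 100 nM as deposited 4 members lay above and 5 below in A673, against 3.45% and 74.2% of all genes, and 6 above and 1 below in TC32, against 24.0% and 34.4%. Relative to the medians 8 members lay above and 0 below at 100 nM in each line, against 50.0% and 18.1% of all genes in A673 and 51.2% and 21.2% in TC32. For orientation, limma called 0.946% of all tested genes higher and 82.5% lower at 500 nM in A673 as deposited, and 0.946% and 62.9% in TC32. Relative to the medians the shares were 29.6% higher and 27.4% lower in A673 and 41.3% and 30.8% in TC32. Because these contrasts chose the members, nothing is read from the counts.

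Across the 12 arrays, on the relative scale, the members fell into a few shapes, given as Pearson correlations with no test because the arrays share 2 lines and 3 treatments. KLF2 and CEBPD, both brighter in TC32 and highest at 100 nM, correlated at 0.97. KLF6 and KLF10 correlated at 0.92, KLF4 and KLF10 at 0.87, and KLF5 and KLF6 at 0.87. CEBPB ran against KLF6 at -0.83 and against KLF10 at -0.71. CEBPB and KLF2 correlated at -0.01.

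The lines themselves differed in these genes before treatment. The members were chosen by their response to THZ531, with earlier results of these arrays known. This comparison is therefore not known to be independent of that choice. KLF2 and CEBPD were higher in TC32 on both scales. KLF2 read 8.82 and 8.62 in A673 against 10.06 and 9.85 in TC32 with DMSO, a difference A673 minus TC32 of -1.24 ± 0.21 (limma adjusted p = 1.3e-08) and of -1.93 ± 0.12 relative to the medians (limma adjusted p = 3.76e-12). CEBPD differed by -1.76 ± 0.21 (limma adjusted p = 4.55e-16), 3.39-fold, and by -2.45 ± 0.14 relative (limma adjusted p = 5.84e-13). Both calls held without any 1 of the 12 arrays on either scale.

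CEBPB was higher in A673, by 1.00 ± 0.21 as deposited (limma adjusted p = 3.21e-06), and by 0.31 ± 0.13 relative (limma adjusted p = 0.0412). The relative call for CEBPB held in 6 of the 12 fits that each left out 1 array, with adjusted p from 0.0281 to 0.168, and was lost without any 1 of the 4 DMSO arrays or either A673 array at 100 nM. KLF11, KLF4 and KLF5 were higher in A673 as deposited, by 0.92, 0.59 and 0.54, with limma adjusted p of 7.57e-05, 0.012 and 0.012. On the relative scale these 3 were not called, and KLF4 and KLF5 turned to -0.10 and -0.15, while KLF11 was called, at 0.44, without the second A673 DMSO array. The KLF4 call was lost without the first DMSO array of either line, and the KLF5 call without the first A673 DMSO array or either TC32 DMSO array. KLF6 and KLF10 were not called as deposited (0.10 and 0.26), but were lower in A673 relative to the medians by -0.59 and -0.43 (limma adjusted p = 9.23e-05 and 0.00579). The KLF10 difference was -0.25 and no longer called without the first A673 DMSO array (limma adjusted p = 0.127).

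As deposited, 4 of the 8 tested members were therefore higher in untreated A673 and 2 lower, where limma called 77.4% of all tested genes higher and 5.13% lower. With arrays centred on their medians, 1 was higher and 4 lower, against 33.9% and 21.4% of all tested genes. The median difference of the 8 members was 0.40 as deposited, against 0.81 over all tested genes, and -0.29 relative, against 0.12. The under-minimum genes KLF9 and CEBPA differed by -0.67 and 0.41 as deposited and by -1.36 and -0.28 relative.

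**Figure D3:**
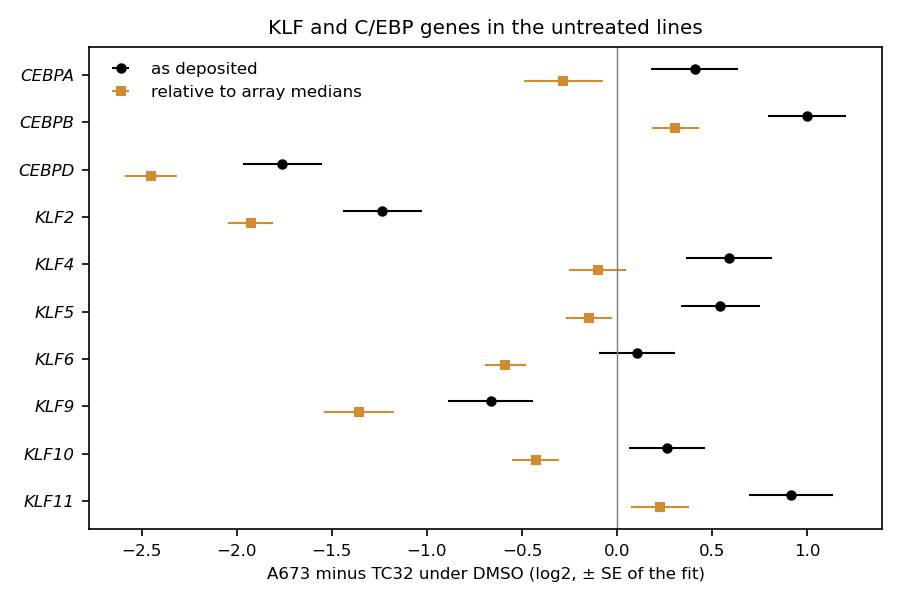
Difference between untreated A673 and TC32 (A673 minus TC32, log2, with the standard error of the fit) for the 10 genes as deposited (circles) and relative to the array medians (squares). KLF2 and CEBPD lie below -1 on both scales, and CEBPB lies above 0 on both.

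Whether THZ531 acted on a member to a different degree in the lines was tested as the difference of the effects, TC32 minus A673. In this balanced layout that difference is orthogonal to the effect averaged over the lines. How the choice of members weighed the lines is not given, so the test is not known to be independent of that choice. As deposited limma called 0 of the 8 members at 500 nM and 0 at 100 nM, against 1.83% and 2.31% of all tested genes in either direction. At an unadjusted p under 0.05 it was 1 member at 500 nM, KLF10, and 0 at 100 nM. Relative to the medians KLF10 was called at 500 nM, with an effect smaller in TC32 by a difference of -0.66 ± 0.18 (limma adjusted p = 0.0191), where 6.75% of all tested genes were lower and 3.04% higher. The KLF10 call held in 7 of the 12 fits without 1 array, with adjusted p from 0.00119 to 0.0984, and was lost without the first A673 DMSO array, either TC32 DMSO array, or the first 500 nM array of either line. CEBPB, CEBPD and KLF2 followed at -0.50, -0.50 and -0.45 relative, with limma adjusted p of 0.0726, 0.104 and 0.0921, so these differences between the lines did not pass the test. At an unadjusted p under 0.05 it was 4 of the 8 members, these 3 and KLF10. Without the second TC32 array at 500 nM all of CEBPB, CEBPD and KLF2 were called on this scale, at -0.67, -0.67 and -0.58, and CEBPD also without the second A673 DMSO array, at -0.68. The median over the 8 members was -0.40 relative, against 0.06 over all tested genes. At 100 nM relative to the medians 0 were called, 1 had an unadjusted p under 0.05, KLF6 at -0.40, and 2.62% of all tested genes were called in either direction. Without the second A673 array at 500 nM, CEBPB, KLF2 and KLF10 were called lower as deposited, at -0.57, -0.56 and -0.92; without the first, KLF5 was called higher, at 0.73. The 100 nM counts also moved from 0 to 3 without either of those arrays, for KLF5, KLF10 and CEBPB at unchanged differences of 0.52, 0.51 and 0.54.

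Of the other genes of the families, 22 were listed and measured: 10 KLF, 9 SP and 3 C/EBP genes, of which 11 were tested. This list leaves out the members, which were chosen on these same differences from DMSO. Its counts and p-values against DMSO are therefore a description. SP proteins share the zinc fingers of the KLF proteins, and CEBPG lacks most of the activating part of its relatives. KLF3, a repressor that recruits CTBP, lost more signal than any other tested family gene or member. In A673 KLF3 read 9.01 and 9.23 with DMSO, 7.15 and 6.82 at 100 nM, then 6.16 and 5.80 at 500 nM, and in TC32 8.44 and 8.43, then 6.72 and 6.70, then 5.72 and 5.85. KLF3 fell by 3.15 ± 0.21 in A673 and by 2.65 ± 0.21 in TC32 at 500 nM (limma adjusted p = 6.99e-49 and 2.77e-35), with 100 nM differences of -2.14 and -1.73. After centring its 500 nM differences were -2.31 and -1.86 (limma adjusted p = 8.11e-12 and 1.45e-10). Unlike CEBPB and KLF2 as read above, KLF3 was well below DMSO at both doses.

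SP4, a neuronal member of the SP group, fell by 2.12 and 2.05 at 500 nM, with relative differences of -1.29 and -1.25 (limma adjusted p = 7.93e-08 and 8.26e-08). As deposited 5 more fell in both lines, with 500 nM differences in A673 and TC32 of -1.52 and -1.27 for KLF7, -1.53 and -0.97 for SP1, -1.06 and -1.42 for SP2, -1.48 and -1.04 for SP3, and -1.08 and -1.09 for CEBPG. KLF12 and KLF13 fell in A673, by 1.22 and 0.67, though KLF13 stood at 0.17 relative and 0.15 after quantile normalisation, and had values of -0.27 and -0.40 in TC32 that were not called. The other 2 tested genes, KLF16 and SP9, were called on the relative scale only: KLF16 rose by 0.55 and 0.41 and SP9 by 0.57 and 0.54. With arrays centred on their medians, KLF7 fell in both lines, SP1, SP3 and KLF12 in A673, and SP2 and CEBPG in TC32. In TC32 KLF12 and KLF13 rose on that scale, by 0.53 and 0.40.

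Counting these 11 family genes as deposited, 0 rose and 9 fell at 500 nM in A673, and 0 rose and 7 fell in TC32. The counts of rises are 0 also at an unadjusted p under 0.05. The shares of all tested genes were those given above, 0.946% higher in both lines, with 82.5% and 62.9% lower. Relative to the medians 2 rose and 6 fell in A673, against 29.6% and 27.4%, and 4 rose and 5 fell in TC32, against 41.3% and 30.8%. The median 500 nM difference of the 11 was -1.22 in A673 and -1.04 in TC32 as deposited, against -0.73 and -0.64 over all tested genes, and -0.39 and -0.25 relative, against 0.10 and 0.15. At 100 nM as deposited 0 rose and 6 fell in A673, where limma called 1.31% of all tested genes higher and 58.7% lower, and 1 rose and 3 fell in TC32, against 5.56% and 20.9%. On the relative scale it was 3 and 3 in A673, against 24.4% and 17.1%, and 4 and 3 in TC32, against 30.6% and 21.2%. SP3 was the gene that rose at 100 nM in TC32 as deposited, by 0.67 (limma adjusted p = 0.00686), a call that was lost without the second TC32 DMSO array or without either TC32 array at 100 nM.

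**Figure D4:**
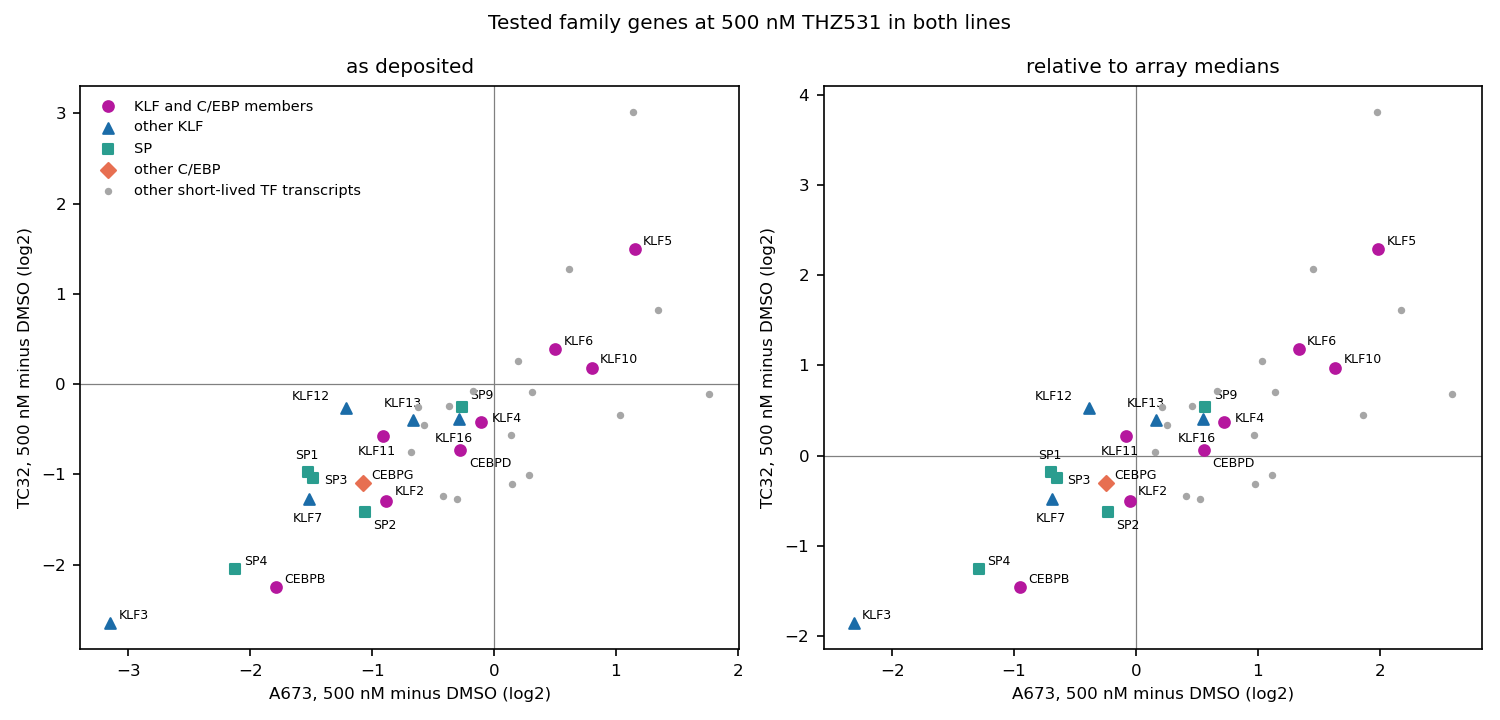
Difference of 500 nM THZ531 from DMSO in A673 (horizontal) and TC32 (vertical), in log2 units, for the tested members, the other tested KLF, SP and C/EBP genes, and other short-lived transcription factor transcripts, as deposited (left) and relative to the array medians (right). KLF3, SP4 and CEBPB are the furthest down on both axes and KLF5 is the member furthest up.

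The genes that act with or on the members were read from lists that, like the members, were drawn up with results of these arrays known, so their counts and values are a description. Every list count that follows stands against these shares of all tested genes at 500 nM: as deposited 0.946% rose in either line and 82.5% fell in A673 and 62.9% in TC32, and relative to the medians 29.6% rose and 27.4% fell in A673 and 41.3% and 30.8% in TC32. Of 7 tested partners from the basic leucine zipper group, 0 rose in either line at 500 nM, and 5 fell in A673 and 4 in TC32; relative to the medians 5 rose and 1 fell in A673, and 3 rose and 4 fell in TC32. CREB1, a cAMP-responsive activator, fell by 2.78 and 2.62, and DBP, a circadian activator, by 0.97 and 1.14, though DBP in A673 was at -0.14 relative and not called. Of 10 tested cofactors all 10 fell in A673 and 6 in TC32, with 0 rises; relative to the medians 4 fell in each line, and 1 and 5 rose. The median cofactor stood at -0.88 in A673 and -0.71 in TC32 as deposited, against -0.73 and -0.64 over all tested genes. SIN3A and SIN3B, scaffolds of a histone deacetylase complex that KLF9, KLF10 and KLF11 recruit, fell by 2.21 and 2.28 in A673 and by 2.32 and 2.18 in TC32. The counts of 0 rises as deposited, for partners, cofactors and the upstream regulators that follow, were 0 also at an unadjusted p under 0.05.

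Of 14 tested genes that control turnover of these factors or their messages, 2 rose and 11 fell in A673, and 1 rose and 9 fell in TC32. With arrays centred on their medians, 3 rose and 6 fell in A673, and 6 rose and 5 fell in TC32. The medians of the list were -0.81 and -0.63 as deposited, close to those of all tested genes. ZFP36, which binds AU-rich messages and speeds their decay, rose by 1.71 in A673 and 0.67 in TC32. TRIB2, an adaptor that directs C/EBP-alpha to degradation, fell to differences of -1.40 and -2.54, and SMURF2, a ubiquitin ligase of TGF-beta signalling, to -1.96 and -1.90.

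Of 12 tested upstream regulators 0 rose, and 11 fell in A673 and 9 in TC32. Relative to the medians 1 rose and 7 fell in A673, and 3 rose and 5 fell in TC32, with medians of -0.48 and -0.25 against 0.10 and 0.15 over all tested genes. MEF2D, one of the MEF2 factors known to drive KLF2 downstream of the kinase MAPK7, read 8.04 and 8.27 with DMSO in A673, 8.49 and 8.40 at 100 nM, then 5.52 and 5.90 at 500 nM. In TC32 MEF2D read 8.31 and 8.32, then 9.17 and 8.85, then 5.53 and 6.08. The MEF2D differences at 500 nM were -2.44 and -2.51 as deposited and -1.61 and -1.72 relative to the medians, and at 100 nM they were 0.91 and 0.90 relative. MAPK7, named after its values were seen, fell by 1.73 and 1.66 at 500 nM. MEF2A, also named afterwards, fell in both lines at 500 nM as deposited. Relative to the medians MEF2A was higher in TC32 at an unadjusted limma p under 0.05, and in A673 it was not called. At 100 nM, unlike MEF2D, MAPK7 was lower in both lines on both scales at an unadjusted limma p under 0.05. MEF2A was lower at 100 nM in A673 on both scales by the same threshold, and passed it in neither direction in TC32. The part of these genes in the KLF2 values was not tested. SMAD4, the common mediator of TGF-beta signals, fell by 1.87 and 2.05.

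Of 9 tested targets that the literature ties to these factors, 1 rose and 4 fell in A673, and 2 rose and 5 fell in TC32. On the relative scale 6 rose and 1 fell in A673, and 5 rose and 2 fell in TC32. The median target stood at 0.61 and 0.35 relative, against 0.10 and 0.15 over all tested genes. CCNB1, a mitotic cyclin, fell by 1.41 and 1.99, and CDKN1B, which encodes the cell cycle inhibitor p27, by 0.64 and 1.69, though CDKN1B in A673 was at 0.20 relative.

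Other short-lived transcription factor transcripts, 17 of them tested, are given for orientation only, because CEBPB and KLF2 were picked for going the other way at 500 nM. As deposited 5 rose and 4 fell in A673 at 500 nM, and 3 rose and 6 fell in TC32. With arrays centred on their medians, 14 rose and 0 fell in A673, with 0 falls also at an unadjusted p under 0.05, and 11 rose and 3 fell in TC32. EGR1, a growth factor response gene, rose by 1.14 and 3.02, and JUN, an AP-1 subunit, by 1.35 and 0.82. ID3, an inhibitor of basic helix-loop-helix factors, fell by 0.42 and 1.24, and IRF1, an interferon response factor, by 0.68 and 0.75, though relative to the medians ID3 in A673 was at 0.41 and IRF1 at 0.15 and 0.04. The median relative difference of this list was 0.98 in A673 and 0.54 in TC32, against 0.10 and 0.15 over all tested genes.

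The tested genes whose values followed those of CEBPB and KLF2 most closely over the 12 arrays were found by Pearson correlation on the relative scale. For CEBPB they were POM121C, KANSL2, CTCF, CDK7 and PPRC1, with r from 0.989 to 0.993. For KLF2 they were HSPA2, LBH, EXT1, ZEB1 and NEXMIF, with r from 0.987 to 0.996. The arrays share their line, treatment and scaling, so these values describe likeness of pattern and carry no test.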

How the data were processed

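Expression was measured on biotin-labelled arrays. The deposited values are log2 signals. How the authors normalised them is not given in the sources used here, beyond MAS5, GRCh37 and hg19, which stand in the submitters' processing notes with no role. All 3-decimal probe sets of each member held the same value, so transcripts of a gene are not told apart. Of 49395 probe sets, 44994 were annotated to 1 gene and 44967 of those matched RefSeq, which gave the current symbols. Entries with 2 decimals were left out (2829), as were 116 genes that shared their values with another symbol, which left 16913 genes.

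With limma 3.58.1 under R 4.3.3, the 6 group means were estimated in a single fit over the 12 arrays, with trended moderated variances and two-sided tests, for the 10148 genes with a mean at or above the 40th percentile. P-values were adjusted by Benjamini-Hochberg over all of them, with a threshold of 0.05. Tables were made with Python 3.11.15 and pandas 2.3.3, and the fit was tested on simulated data. The labels put a dose of 100 nM on the DMSO samples too, which was read as not applying. The precision is limited by 2 arrays per group, with 6 residual degrees of freedom. As deposited the prior degrees of freedom came out as infinite, so a gene's own replicate spread had no weight. Its standard error and p-value then rest on the trend over genes of like brightness. Relative to the medians the prior degrees of freedom were 15.8, so both entered.

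The members and gene lists were chosen with earlier results of these data known. Named were all 10 members, each other tested family gene called at 500 nM in either line, up to 2 rises and 2 falls per further list called in both lines, and the 5 genes most correlated with CEBPB and with KLF2. KLF16 and SP9 were called on the relative scale, and MAPK7 and MEF2A were added. Alternatives changed the scaling, the filter, the variance model, the choice of probe set, the arrays left in and the replicate block. Centring combined with leaving out each array was added after seeing the data.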

Additional observations from a re-analysis of the deposited data

Results flagged for a closer look

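The following effects differed between the lines by the test of the difference itself (TC32 minus A673, limma with Benjamini-Hochberg adjusted p under 0.05). Only members, other family genes and genes picked for naming were gone through, so this is not every listed gene that passed. Among the members, KLF10 at 500 nM differed by -0.66 relative to the array medians, a call kept in 7 of the 12 fits that each left out 1 array. Among the other family genes, KLF12 and SP1 at 500 nM differed by 0.91 and 0.52 relative to the medians, kept in 12 and 3 of the 12 fits. The SP1 call was kept only without the second A673 DMSO array or either TC32 array at 100 nM, with differences from 0.44 to 0.60 over the 12 fits. SP3 at 100 nM differed by 1.02 as deposited, kept in 2 of the 12 fits, those without either A673 array at 500 nM, with adjusted p up to 0.419 in the others. EGR1, a short-lived transcript, differed by 1.37 at 100 nM and 1.88 at 500 nM as deposited, and by 0.95 and 1.84 relative to the medians, kept in all 12 fits except the 100 nM call as deposited, kept in 9. Most called short-lived transcripts went the other way from EGR1. Of 17 tested, 1 was higher and 5 lower at 500 nM as deposited, against 0.552% and 1.28% of all tested genes. Relative to the medians it was 2 and 7, against 3.04% and 6.75%. FOS and ID1, not picked for naming, differed by -1.87 and -1.37 as deposited. CDKN1B at 500 nM differed by -1.06 as deposited and -1.10 relative, ID3 by -0.83 and -0.86, TRIB2 by -1.14 and -1.18, and ZFP36 by -1.05 and -1.09. As deposited these were kept in 2, 2, 8 and 3 of the 12 fits, and relative to the medians in 12 each. CCNB1 at 500 nM differed by -0.62 relative to the medians, kept in 8 of the 12 fits and lost without the first 500 nM array of either line or either TC32 DMSO array.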

How the results depend on the processing

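The variance model left every count of calls for members and family genes as reported. So did the mean of distinct value sets, but each of these genes had only 1 value set, so their values could not change. In the whole series 10 genes had several. Relative to the array medians, with and without the replicate block, the members were 1 higher and 4 lower between untreated lines and 1 lower for the 500 nM effect, and the family genes rose and fell as 2 and 6 (A673, 500 nM), 3 and 3 (A673, 100 nM), 4 and 5 (TC32, 500 nM) and 4 and 3 (TC32, 100 nM). Quantile normalisation gave 0 higher and 4 lower members between the lines, 1 higher and 3 lower for the 500 nM effect, 1 lower for the 100 nM effect, and family counts of 2 and 5, 3 and 2, 3 and 4, and 4 and 3 in the same order. The filter at the 60th percentile left 2 members higher between the lines and 5 and 3 family falls in A673 at 500 and 100 nM, and 1 in TC32 at 100 nM, with fewer genes tested. With no filter on dim genes, 5 family genes fell in TC32 at 100 nM.

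Leaving out 1 array at a time, as deposited, gave 2 to 5 members higher between the lines, 0 to 1 higher and 0 to 3 lower for the 500 nM effect, 0 to 3 higher for the 100 nM effect, and 0 to 4 family rises in TC32 at 100 nM. With centring as well, the members were 0 to 1 higher and 3 to 4 lower between the lines and 0 to 4 lower for the 500 nM effect. Family rises were then 2 to 2 and 2 to 4 in A673 at 500 and 100 nM and 3 to 4 and 4 to 4 in TC32, and falls 4 to 6, 2 to 3, 3 to 5 and 3 to 3.

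Turned directions are listed for called results, and for untested member differences only where both values lay well beyond their standard errors. Smaller turns stand with the members above, such as CEBPD and KLF4 at 500 nM in A673. Directions turned for KLF4 and KLF5 between the lines (-0.10 and -0.15 relative with or without the block, -0.032 and -0.12 after quantile normalisation) and for KLF13 at 500 nM in A673 (0.17 relative, 0.15 after quantile normalisation). After quantile normalisation they turned also for KLF2 at 500 nM in A673 (0.23), CEBPD at 500 nM in TC32 (0.33), and SP1 and SP3 at 500 nM in TC32 (0.094 and 0.092). The cause was not tested.

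Within a line, deviations of same-numbered arrays on the relative scale correlated from -0.16 to 0.24. Centring takes out shifts of whole arrays, so these values do not speak to them. The first array had the higher median over all kept genes in every group. With the replicate block the family rises at 100 nM in TC32 went from 1 to 2 and the falls at 500 nM in TC32 from 7 to 8, and the counts for members did not change.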
